A study of Mus musculus with 10 samples.

Results

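Expression of 34 genes of glycolysis and the pentose phosphate pathway was followed in dermal endothelial cells carrying an activating *Pik3ca* mutation. The genes were a chosen list, matched by Ensembl identifier to their mouse symbols, and all 34 were found among the 46517 Ensembl genes of the count tables. By role they are 2 glucose transporters, 11 genes of upper glycolysis, 5 of lower glycolysis and 4 of lactate production and export. A further 5 are pyruvate genes, of the mitochondrial pyruvate carrier or of pyruvate dehydrogenase and its kinases. The rest are 6 of the pentose phosphate pathway and *Bnip3*, a mitophagy receptor of the hypoxia response.

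Single cells had been sorted from ear skin by podoplanin and CD31 into 384-well plates and sequenced by Smart-Seq2, a full-length method without molecular identifiers. Mutant mice (n = 5, with 7 plates) carried Pik3caH1047R and Cdh5-CreERT2, received 4-OHT on the ears at 3 wk of age and were 5 wk old. Cdh5-CreERT2 acts in all endothelium, so the transgene could be switched on in both LECs and BECs. Its sequence is not among the genes counted, so recombination per cell could not be read. Control 1 was a C57BL/6J mouse without 4-OHT, and control 2 was a Cre-negative littermate with 4-OHT, both also 5 wk old. The study's methods place all mice on a C57BL/6J background. The controls differ from each other in 4-OHT and, by Xist and Y-linked reads, in sex, control 1 and mutants 3–5 being female and control 2 and mutants 1 and 2 male. Column names of every count table but that of control 2 mark removal of duplicate reads, and whether they were removed there too is not stated. A further control of the study was not analysed here. Plate labels place mutants 1–4 in one number series and mutant 5 with both controls in another, and what this numbering stands for is not given.

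LECs were cells in which CPM of *Prox1*, *Flt4* and *Mmrn1* summed to 300 or more and exceeded the sum of *Flt1*, *Emcn* and *Podxl*, and BECs were cells in which the second sum was larger. Of 3456 wells, 3248 passed the limits on reads, genes and mitochondrial reads, which gave 1641 LECs and 1542 BECs. The 2 control mice had 183 and 175 LECs and 163 and 164 BECs, and the mutants 182–367 LECs and 184–340 BECs. *Ptx3* LECs (*Ptx3* at 100 CPM or more) numbered 12 and 44 in the controls and 62–162 in the mutants. Collecting LECs (*Mmrn2* above *Lyve1*) numbered 28 and 19 and 13–41. Reads were summed per mouse and class, from 55616045 to about 194353210 for LECs and from 39610940 to about 102714570 for BECs, and values are TMM-scaled CPM (read counts of a gene scaled to 1e+06 reads) of these sums. Mice, not cells, were the replicates. In such sums fewer cells expressing a gene and less RNA per cell cannot be told apart.

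LECs and BECs held their own markers, with 7 LEC markers summing to 7205–10848 CPM in LECs and 152–679 CPM in BECs. For 6 BEC markers the sums were 4644–5930 CPM in BECs and 1231–1795 CPM in LECs. *Prox1*, *Flt4*, *Mmrn1*, *Flt1*, *Emcn* and *Podxl* among these also set the classes. The 4 *Ptx3* LEC markers summed to 1435–3207 CPM in *Ptx3* LECs, 90.6–403 CPM in collecting LECs and 2236–3205 CPM in BECs. The 2 collecting markers were at 923–1483 CPM in collecting LECs, 36.1–249 CPM in *Ptx3* LECs and 818–1205 CPM in BECs. Neither of these 2 lists, which hold *Ptx3* and *Mmrn2* of the class rules, sets its subclass apart from BECs. Other markers moved with genotype in the same sums. The 6 BEC markers summed to 1231–1433 CPM in control LECs and 1645–1795 CPM in mutant LECs, without overlap. Fits without cycling cells stand beside the results below, and the part of the other markers was not tested. In LECs, 7 cycling genes summed to 58.2–87.6 CPM in controls and 412–712 CPM in mutants, and all 7 were called higher. The 10 genes of the dissociation response summed to 2383–3834 CPM in controls and 694–1721 CPM in mutants, with 4 called lower. The 6 fibroblast markers summed to 243–455 and 26.9–127 CPM, with none called by edgeR, 3 by DESeq2, 4 at an unadjusted p under 0.05 and none at 0. In BECs, the cycling, dissociation and fibroblast lists were at 13.5–37.0 and 99.2–466 CPM (3 of 7 higher), 4611–4812 and 1340–2825 CPM (3 of 10 lower), and 748–947 and 17.6–86.3 CPM (4 of 6 lower).

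Glycolysis splits glucose into pyruvate. Its upper steps spend ATP to form triose phosphates, and its lower steps, from *Gapdh* to *Pkm*, return ATP and NADH. Endothelial cells make most of their ATP this way and export the pyruvate as lactate, while the pentose phosphate pathway diverts glucose 6-phosphate into NADPH and ribose. PI3K signaling and the hypoxia factors of the HIF family are both known to raise transcription of glycolytic genes.

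Printed first are the starts of the genes called in the most comparisons of mutant with control, and of the gene with the largest fold change there. Whether these genes vary together was not tested. *Pgk1* (ENSMUSG00000062070), *Pgam1* (ENSMUSG00000011752) and *Pkm* (ENSMUSG00000032294) were called higher in LECs, BECs and *Ptx3* LECs, and *Slc16a3* (ENSMUSG00000025161) had the largest fold change. Each window runs from 250 bases before to 50 bases after a RefSeq transcript start in GRCm38.p6, all on the plus strand. Capitals mark ACGTG or GCGTG, the core letters of the hypoxia response element, or their reverse complements CACGT and CACGC.
Pgk1, chrX:106186850-106187149: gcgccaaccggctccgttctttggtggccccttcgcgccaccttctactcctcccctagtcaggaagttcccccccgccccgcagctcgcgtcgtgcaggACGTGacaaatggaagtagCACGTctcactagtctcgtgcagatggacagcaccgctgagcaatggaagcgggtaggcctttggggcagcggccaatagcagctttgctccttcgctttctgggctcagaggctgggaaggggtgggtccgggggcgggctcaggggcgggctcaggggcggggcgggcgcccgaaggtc
Pgam1, chr19:41911621-41911920: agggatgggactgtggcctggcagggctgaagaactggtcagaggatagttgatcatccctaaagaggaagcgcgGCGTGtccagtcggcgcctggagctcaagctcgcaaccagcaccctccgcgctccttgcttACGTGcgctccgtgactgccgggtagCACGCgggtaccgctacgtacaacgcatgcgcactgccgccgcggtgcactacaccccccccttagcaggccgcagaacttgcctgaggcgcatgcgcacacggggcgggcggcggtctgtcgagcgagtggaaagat
Pkm, upstream start, chr9:59656326-59656625: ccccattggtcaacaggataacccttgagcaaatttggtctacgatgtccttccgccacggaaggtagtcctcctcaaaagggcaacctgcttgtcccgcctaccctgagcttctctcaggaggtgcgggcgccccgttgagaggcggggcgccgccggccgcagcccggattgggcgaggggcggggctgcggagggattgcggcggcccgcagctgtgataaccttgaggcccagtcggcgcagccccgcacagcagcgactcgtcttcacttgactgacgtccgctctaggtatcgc
Pkm, downstream start, chr9:59656977-59657276: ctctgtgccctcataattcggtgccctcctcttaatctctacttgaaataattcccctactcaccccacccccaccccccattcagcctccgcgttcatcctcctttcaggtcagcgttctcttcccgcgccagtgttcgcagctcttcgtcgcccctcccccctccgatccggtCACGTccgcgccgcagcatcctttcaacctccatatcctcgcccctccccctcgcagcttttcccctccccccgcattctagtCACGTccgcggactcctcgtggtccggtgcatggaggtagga
Slc16a3, chr11:120948817-120949116: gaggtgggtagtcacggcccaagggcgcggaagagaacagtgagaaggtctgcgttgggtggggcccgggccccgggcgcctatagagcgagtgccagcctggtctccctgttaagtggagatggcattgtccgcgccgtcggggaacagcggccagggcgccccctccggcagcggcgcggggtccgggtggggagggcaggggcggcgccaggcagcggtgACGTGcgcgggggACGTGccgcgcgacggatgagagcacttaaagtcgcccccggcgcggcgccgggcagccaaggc

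*Pgk1* holds 2 of these cores, *Pgam1* 3, *Slc16a3* 2, and *Pkm* none at the upstream start and 2 at the downstream one. RefSeq windows were found for 33 of the 34 genes, 48 windows in all, some of which overlap. ACGTG or GCGTG on either strand occurred in 39 of the 48 windows (81.25%), belonging to 31 of the 33 genes, against 43.77% of 32851 mouse windows of the same length. The letters CACGTG hold the core on both strands and were counted on each. TGTTTAC, a forkhead motif, occurred on either strand in 1 of the 48 windows (2.083%) against 3.65% of all. Genes with more than 1 window had more chances of a match, and no share per gene was taken over all genes. *Gpi1* and *Tpi1* hold no hypoxia core in their windows, and the windows were not matched for base composition. A match describes letters and not binding.

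Levels of different genes were compared per kb of exon, without TMM scaling. By these, *Aldoa*, *Ldha* and *Pkm* were the most abundant of the 34 in LECs (the plot of levels along the pathway). *Aldoa*, which cleaves fructose 1,6-bisphosphate, was at 344 CPM per kb in control LECs (mean, n = 2) and 409 ± 24.2 in mutant LECs (SD, n = 5). *Ldha*, which turns pyruvate into lactate, was at 127 and 221 ± 43.0 in LECs, and *Pkm*, the last enzyme of glycolysis, at 118 and 249 ± 50.3. In mutant LECs the levels of *Ldha* and *Pkm* lie within each other's spread. In control BECs *Aldoa* came first at 239, with *Ldha* at 201 and *Pkm* at 198. In mutant BECs *Pkm* came first at 482 ± 61.4, ahead of *Aldoa* at 391.8 ± 52.2 and *Ldha* at 358 ± 34.2, which lie within each other's spread. *Taldo1*, a transaldolase of the pentose phosphate pathway, came next in control LECs at 96.7 CPM per kb. *Hk2*, *Slc2a3* and *Pdk4* were close to the floor, with group means of at most 0.554 in LECs.

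**Figure D1:**
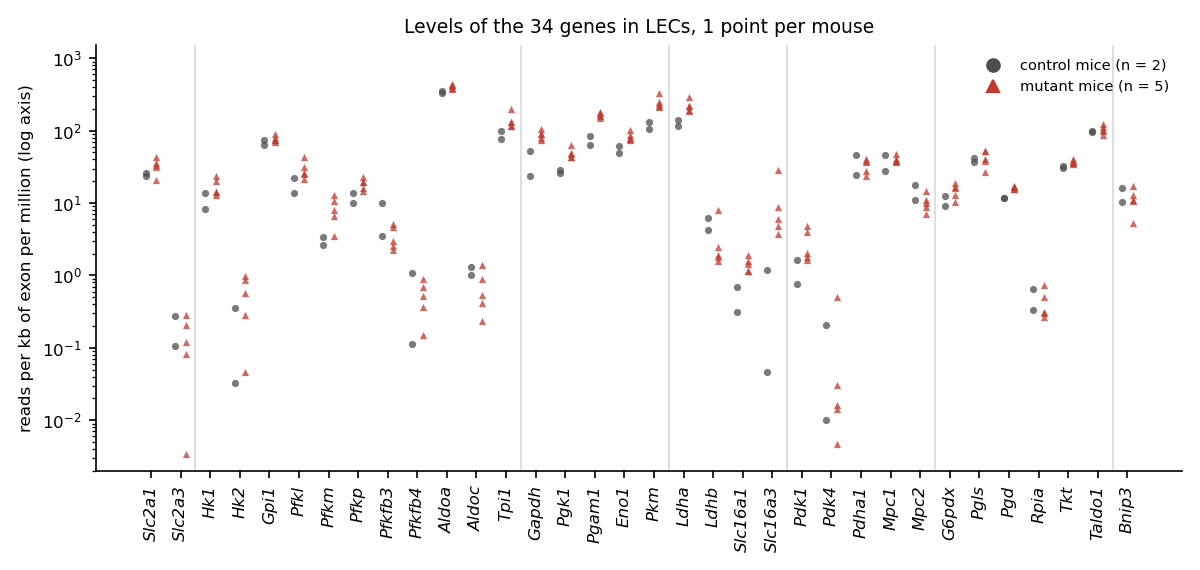
CPM per kb of exon in LECs for the 34 genes, ordered by role, on a log axis, with 1 point per mouse (grey circles, 2 controls; red triangles, 5 mutants) and vertical lines between roles. The levels run from 0.00345 for Slc2a3 to 438 for Aldoa, and mutants lie above both controls at all 5 genes of lower glycolysis.

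In 4 of 9 families of paralogous enzymes, 1 form carried nearly all reads. *Slc2a1*, the GLUT1 transporter, made up at least 97.35% of the *Slc2a1* and *Slc2a3* reads per kb in every LEC and BEC sum. *Hk1* made up at least 95.7% against *Hk2*, and *Aldoa* at least 98.8% against *Aldoc*. *Ldha* made up 90.4–99.5% against *Ldhb*. Other families were read more evenly, *Pfkfb3* making up 70.9–99.9% against *Pfkfb4*, *Pdk1* 80.6–99.7% against *Pdk4* and *Mpc1* 71.5–83.9% against *Mpc2*. For phosphofructokinase, the main control point of glycolysis, all 3 forms were read in both cell types.

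The first comparison asked which of the genes differ between mutant and control LECs. *Pgam1*, *Pkm* and *Pgk1* rose, and no member fell. With edgeR's quasi-likelihood test and Benjamini-Hochberg adjustment over 19758 genes, 3 of 34 members were called higher (adjusted p under 0.05), where 2.76% of all genes were called and 1.96% were called higher. DESeq2 called 12 members, all higher, and 14.6% of the genes edgeR tested. At an unadjusted p under 0.05 there were 15 members, again all higher, and 20.1% of all genes. The median log2 fold change of the members was 0.48, and that of all genes was −0.01. All 5 mutants lay above both controls for 16 of 34 members, which held for 13.8% of all genes, and for no member did all lie below, which held for 11.7% of all genes.

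Lower glycolysis held the called genes. *Pgam1*, phosphoglycerate mutase, was at 119 and 147 CPM in the control LECs and at 269, 325, 310, 303 and 334 CPM in mutants 1–5. The lowest mutant was well above the higher control. Its log2 difference came to 1.22 (SE 0.15, adjusted p = 0.0099), and it was called in 17 of 19 alternative settings and without any 1 of the 7 mice. *Pgk1*, phosphoglycerate kinase, the first ATP-forming step, was at 58.2 and 60.1 CPM in controls and at 106, 110, 100.3, 97.9 and 141 CPM in mutants. On the log2 scale *Pgk1* rose by 0.91 (SE 0.19, adjusted p = 0.045), called in 6 of 19 settings. *Pkm* was at 341 and 260 CPM in controls and at 537, 649, 589, 622 and 877 CPM in mutants, a difference of 1.12 on the log2 scale (SE 0.21, adjusted p = 0.036) that was called in 11 of 19 settings. Of its exon length, 15.3% is shared with *Gm49759* on the same strand, so a share of its reads could belong to either. Reads carried no strand, and *Gpi1*, *Pfkm*, *Pdha1*, *Mpc1*, *G6pdx*, *Pgls* and *Bnip3* also share 10.75–23.05% of their exon length with other genes, mostly on the opposite strand.

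Calls of *Pgk1* and *Pkm* did not hold without single mice. *Pgk1* lost its call without control 1, control 2 or any of mutants 1–4, with log2 fold changes of 0.81–0.95 over the 7 fits and edgeR adjusted p up to 0.117. *Pkm* lost its call without control 1, control 2 or mutant 2, 3 or 4, with log2 fold changes of 0.94–1.35 over the 7 fits and adjusted p up to 0.108. Without cycling cells, which were 0.546% and 2.29% of control LECs and 9.92–16.8% of mutant LECs, the log2 fold change was 1.11 for *Pgam1* (adjusted p = 0.028), 0.94 for *Pkm* (adjusted p = 0.10) and 0.74 for *Pgk1* (adjusted p = 0.11). Within the controls' number series, where mutant 5 is the lone mutant and is assumed to vary as the controls do, it was 1.35 for *Pgam1*, 1.56 for *Pkm* and 1.27 for *Pgk1*, none called. With sex as a covariate *Pgk1*, an X-linked gene, lost its call (0.90, adjusted p = 0.066) and the other 2 kept theirs.

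The other genes of lower glycolysis, *Gapdh* and *Eno1*, did not pass the threshold. *Gapdh*, the NADH-forming step, was at 218 and 91.9 CPM in controls and 315–435 CPM in mutants, a log2 difference of 1.23 (SE 0.31, adjusted p = 0.075). Enolase 1 (*Eno1*) was at 268 and 308 CPM in controls and 395–558 CPM in mutants, a log2 difference of 0.67 (SE 0.16, adjusted p = 0.069). For both, every mutant was above both controls, as for all 5 genes of lower glycolysis. All 5 passed an unadjusted p of 0.05 and all 5 were called by DESeq2.

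None of the 11 genes of upper glycolysis was called by edgeR in LECs, with 5 at an unadjusted p under 0.05 and 3 called by DESeq2. Mutants did not overlap controls for 5 of them, *Pfkl*, *Pfkm*, *Pfkp*, *Aldoa* and *Tpi1*. For *Pfkl*, at 97.3 and 57.7 CPM in controls and 97.7–191 CPM in mutants, the gap was under 1 CPM, and per kb without TMM scaling mutant 4 (21.7) lay below control 1 (21.9). *Tpi1*, which interconverts the triose phosphates, was at 216 and 256 CPM in controls and 323–543 CPM in mutants (adjusted p = 0.13). *Pfkp* was at 94.0 and 124 CPM and 135–216 CPM (adjusted p = 0.13). *Pfkm*, a low-level form, was at 7.97 and 9.64 CPM and 10.6–36.9 CPM (adjusted p = 0.14). None of these differences passed the adjusted threshold. *Pfkfb3*, which makes the activator of phosphofructokinase, was at 75.3 CPM in control 1 and 25.3 CPM in control 2, with mutants at 16.8–40.1 CPM. The controls differed by more than the mutants did, and a direction cannot be read.

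The remaining upper genes overlapped between the groups. *Hk1*, the hexokinase that carried most hexokinase reads, was at 117 and 65.9 CPM in controls and 109.9–204 CPM in mutants (0.68, SE 0.32, adjusted p = 0.28), and *Gpi1* at 342 and 271 CPM and 317–402 CPM (0.18, SE 0.15, adjusted p = 0.52). *Hk2*, *Pfkfb4*, a further maker of the activator, and *Aldoc*, a brain aldolase, stayed between 0.185 and 5.89 CPM in all mice.

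Glucose uptake, lactate, pyruvate and pentose phosphate genes held no call by edgeR in LECs. *Slc2a1* was at 82.8 and 85.3 CPM in controls and 115, 127, 115, 75.1 and 152 CPM in mutants, with mutant 4 below both controls (log2 difference 0.47, SE 0.25, adjusted p = 0.33). *Slc2a3*, the GLUT3 transporter, was at 0.0257–2.09 CPM in all mice. *Ldha* was at 347 and 390 CPM in controls and 562–881 CPM in mutants (0.86, SE 0.19, adjusted p = 0.056), the nearest to the threshold of the lactate genes. *Slc16a3*, the exporter MCT4, was at 0.253 and 6.00 CPM in control LECs and at 24.98, 20.3, 47.8, 32.6 and 154 CPM in mutants. All mutants were higher, but the controls differed widely from each other and mutant 5 stood far above the next mutant. The log2 difference was 4.15 (SE 1.36, adjusted p = 0.14). Of the 4 lactate genes, 3 passed an unadjusted p of 0.05 and DESeq2 called the same number.

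*Slc16a3* was read in more cells as well as at a higher sum. With each cell thinned to 50000 reads, 0.546% and 3.43% of control LECs and 11.96%, 10.2%, 19.3%, 16.5% and 52.9% of mutant LECs held a read of it. Among BECs the shares were 0.614% and 3.05% and 13.9%, 11.96%, 18.5%, 6.95% and 28.4%. Control shares were all below the lowest mutant share in both cell types, and without thinning as well (1.09% and 6.29% against 13.4–88.6% of LECs). Without molecular identifiers, a read is not a molecule.

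For 4 genes the share of LECs with a read was tested over mice by an exact permutation test, two-sided, with 21 arrangements and a lowest possible p of 0.095. The share for *Slc2a1* was 34.97% and 24.0% in controls and 44.6%, 31.0%, 41.0%, 38.5% and 52.0% in mutants, 11.9 points higher on average (exact permutation p = 0.19, adjusted over 4 genes 0.51), and 4.35 points higher without thinning (exact permutation p = 0.76). *Hk2*, an inducible hexokinase, was read in 1.64% and 0.571% of control LECs and 0.544–7.14% of mutant LECs (exact permutation p = 0.29). *Pfkfb3* was read in 35.5% of the LECs of control 1, 9.71% of those of control 2 and 9.09–15.8% of mutant LECs (exact permutation p = 0.38). *Pdk4*, a kinase that shuts pyruvate dehydrogenase, was read in 0–0.571% of LECs in every mouse (exact permutation p = 1). A difference in *Pdk4* was not detectable at this depth.

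Of 5 pyruvate genes, only *Pdk1* reached an unadjusted p of 0.05, at 5.96 and 11.9 CPM in controls and 13.2–37.5 CPM in mutants (log2 difference 1.33, SE 0.55, adjusted p = 0.23), and DESeq2 called none. *Mpc1* and *Mpc2*, which form the mitochondrial pyruvate carrier, overlapped between the groups, with log2 differences of 0.18 (SE 0.21) and −0.43 (SE 0.28). Among 6 pentose phosphate genes the median log2 difference was 0.22. *Pgd*, the second NADPH-forming step, was at 76.6 and 72.0 CPM in controls and 100.05–112 CPM in mutants without overlap (0.52, SE 0.14, adjusted p = 0.085), and DESeq2 called it. *G6pdx*, the first step, was at 39.4 and 26.6 CPM and 32.7–60.3 CPM (adjusted p = 0.37), and *Taldo1* at 190 and 187 CPM and 178–250 CPM (adjusted p = 0.61). *Tkt* was at 215 and 189 CPM and 221–264 CPM without overlap (0.29, SE 0.13, adjusted p = 0.26), while *Pgls*, the lactonase, was at 141 and 149 CPM and 102–196 CPM, and *Rpia*, the ribose isomerase, at 1.81 and 3.25 CPM and 1.397–4.06 CPM, both with overlap. *Pdha1* was at 171 and 86.8 CPM and 88.2–157 CPM (adjusted p = 0.96). *Bnip3* was at 37.3 and 22.1 CPM and 12.3–39.4 CPM (adjusted p = 0.85).

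**Figure D2:**
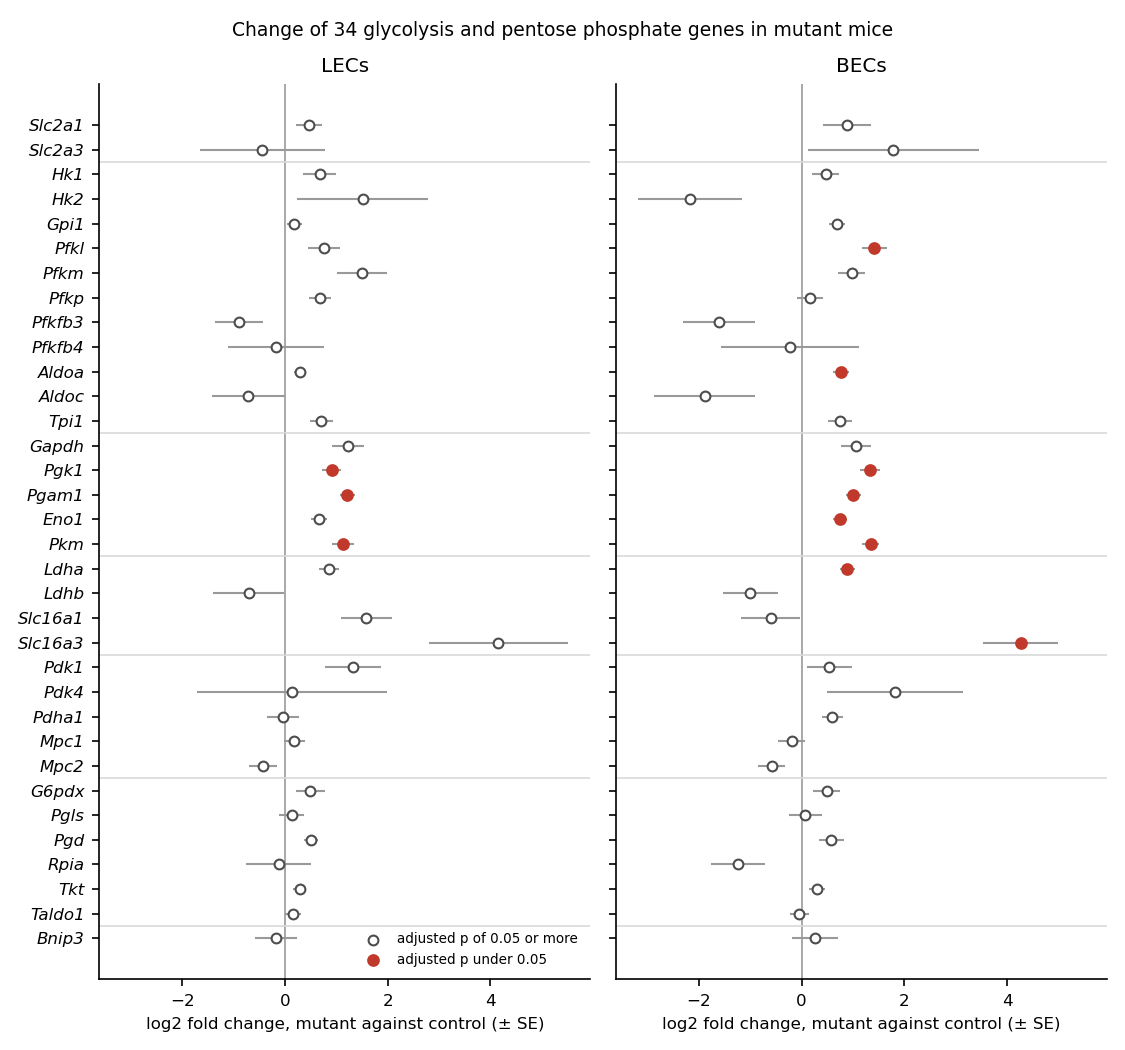
Log2 fold change of each of the 34 genes, mutant against control, in LECs and BECs, with bars of 1 SE from edgeR and horizontal lines between roles; filled red points have an adjusted p under 0.05. Filled points are 3 in LECs and 8 in BECs, all to the right of 0, with 3 and 4 of them among the 5 genes of lower glycolysis.

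The same comparison in BECs called 8 of 34 members, all higher, where 1.87% of 19478 genes were called and 1.36% were called higher. *Pkm*, *Pgam1*, *Pgk1* and *Eno1* of lower glycolysis, *Pfkl* and *Aldoa* of upper glycolysis, and *Ldha* and *Slc16a3* of the lactate genes rose. DESeq2 called 14 members, 13 of them higher, and 13.5% of the genes edgeR tested. At an unadjusted p under 0.05 there were 14 higher and 1 lower, against 19.2% of all genes. The members' median log2 fold change was 0.56, and that of all genes was 0.01. All mutants lay above both controls for 13 members and below both for 2, *Ldhb* and *Rpia*, against 13.6% and 11.4% of all genes.

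*Pkm* was at 485 and 515 CPM in control BECs and at 1253, 1501, 1218, 1015 and 1358 CPM in mutants. Every mutant lay far above both controls, and the log2 difference was 1.34 (SE 0.17, adjusted p = 0.011). *Pgk1* was at 43.6 and 39.5 CPM in controls and at 106, 110, 105, 82.6 and 121 CPM in mutants (1.34, SE 0.19, adjusted p = 0.017). *Pgam1* was at 122 and 136 CPM and at 247, 280, 279, 259 and 238 CPM (1.01, SE 0.14, adjusted p = 0.015). *Eno1* moved less, from 340 and 305 CPM to 472–596 CPM (0.75, SE 0.14, adjusted p = 0.040). *Gapdh*, at 279 and 139 CPM and 335–547 CPM, was not called (1.07, SE 0.29, adjusted p = 0.11).

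*Pfkl*, the liver form of phosphofructokinase, was at 118 and 107 CPM in control BECs and at 274, 281, 399, 221 and 328 CPM in mutants (log2 fold change 1.42, SE 0.24, adjusted p = 0.030). *Aldoa* was at 648 and 632 CPM in controls and 925–1298 CPM in mutants (0.77, SE 0.15, adjusted p = 0.043). *Gpi1*, the isomerase before phosphofructokinase, was at 338 and 258 CPM and 426–556 CPM (0.69, SE 0.16, adjusted p = 0.076) and was not called. Upper glycolysis as a whole had 2 calls among 11 genes, 5 at an unadjusted p under 0.05 and 5 called by DESeq2.

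*Ldha* was at 538 and 626 CPM in control BECs and at 985, 1148, 1116, 956 and 1197 CPM in mutants (log2 fold change 0.89, SE 0.14, adjusted p = 0.023). *Slc16a3* was at 2.05 and 2.65 CPM in controls and at 28.7, 28.1, 44.8, 24.3 and 99.6 CPM in mutants (log2 fold change 4.26, SE 0.72, adjusted p = 0.031). *Slc16a1*, the importer and exporter MCT1, was at 24.5 and 12.2 CPM in controls and 4.91–21.1 CPM in mutants, with overlap (adjusted p = 0.61). *Ldhb*, the subunit of oxidative tissue, was at 30.2 and 20.4 CPM in controls and 3.93–18.8 CPM in mutants (−0.997, SE 0.54, adjusted p = 0.35), and so was not called although the groups did not overlap.

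**Figure D3:**
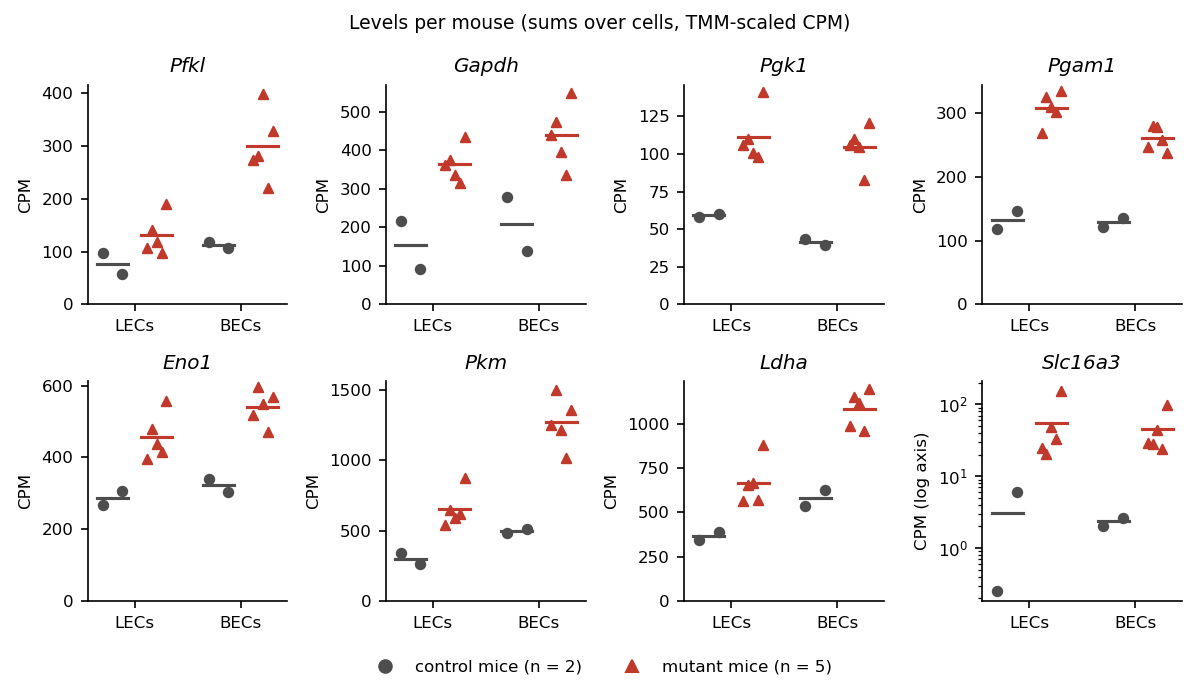
TMM-scaled CPM of 8 genes in LECs and BECs, 1 point per mouse with a line at the group mean (grey, 2 controls; red, 5 mutants); the axis of Slc16a3 is logarithmic and the others start at 0. All mutant points lie above both control points of the same cell type in the 8 panels, for Pfkl in LECs by under 1 CPM, and the gap is widest for Slc16a3 and, among the linear panels, for Pkm in BECs.

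These calls rested on both controls. Without control 1 no member was called in BECs by edgeR, *Pkm* being at an adjusted p of 0.053, and without control 2 only *Pkm* was. Without mutant 1, 2 or 3 there were 4, 3 and 2 calls, and *Pkm* kept its call in each, while without mutant 4 *Eno1* lost its call. Over all 7 fits that leave out a mouse, log2 fold changes were 1.28–1.41 for *Pkm*, 0.69–0.82 for *Aldoa* and 3.73–4.48 for *Slc16a3*, the lowest and highest of the 8 genes being 0.69 and 4.48. Without cycling cells, 0% and 0.61% of control and 1.60–9.09% of mutant BECs, all 8 were called. With sex as a covariate *Aldoa* and *Eno1* lost their calls (adjusted p = 0.065 and 0.061). With the plate number series as a covariate, chosen after seeing the data, 1 was called, *Slc16a3* (log2 fold change 5.41, adjusted p = 0.035), and within the controls' series alone, with mutant 5 as the lone mutant, none was, at log2 fold changes of 0.83 for *Eno1* to 5.42 for *Slc16a3*.

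Pyruvate, pentose and uptake genes held no call in BECs by edgeR. *Slc2a1* was at 166 and 94.6 CPM in controls and at 116, 216, 217, 222 and 434 CPM in mutants (log2 difference 0.89, SE 0.46, adjusted p = 0.33), with mutant 5 far above the others. Of 5 pyruvate genes 1 passed an unadjusted p of 0.05, *Pdha1*, a subunit of pyruvate dehydrogenase, at 88.5 and 70.4 CPM and 92.8–136 CPM (adjusted p = 0.17), and DESeq2 called it. Of 6 pentose phosphate genes 2 did, *Pgd* (74.96–104 CPM in controls, 103–174 CPM in mutants, adjusted p = 0.24) and *Rpia* (4.51–7.49 and 1.70–3.63 CPM, adjusted p = 0.25), and DESeq2 called *Rpia* lower. *Mpc1*, *Mpc2*, *G6pdx*, *Pgls*, *Taldo1*, *Hk1*, *Pfkp* and *Pdk1* overlapped between the groups, with adjusted p of 0.28–0.93. *Tkt*, the transketolase, was at 204 and 171 CPM and 201–260 CPM (adjusted p = 0.32). *Bnip3* was at 123 and 89.1 CPM and 66.2–240.4 CPM (adjusted p = 0.80).

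Shares within isozyme families did not overlap between the groups for some families. *Slc16a3* made up 13.1% and 63.3% of the *Slc16a1* and *Slc16a3* reads per kb in control LECs and 72.6–93.8% in mutant LECs, and 6.51% and 15.3% in control BECs and 48.9–94.4% in mutant BECs. No mutant overlapped a control of the same cell type. In LECs *Slc16a1* itself was at 0.311 and 0.690 CPM per kb in controls and 1.15–1.92 in mutants. Its smaller share in mutant LECs was thus not a lower level. In BECs, *Pfkl* made up 50.1% and 48.0% of phosphofructokinase in controls and 54.2–67.9% in mutants, and *Pfkp*, the platelet form, 26.3% and 34.4% in controls and 11.4–21.8% in mutants. In LECs the same shares overlapped, 63.6% and 44.4% against 45.4–61.8% for *Pfkl*. *Ldhb* made up 9.64% and 5.83% of lactate dehydrogenase in control BECs and 0.620–3.59% in mutant BECs, and *Mpc1* 71.5% and 72.2% of the pyruvate carrier in control LECs and 76.6–83.9% in mutant LECs, again without overlap. These shares carry no test, and those named were picked from all families in both cell types. If the mouse labels were random, a share would separate 5 mutants from 2 controls in either direction with a probability of 0.095. Levels lay above both controls in every mutant for 13.8% of all genes in LECs and 13.6% in BECs. They lay below both for 11.7% and 11.4%. Some shares without overlap are thus expected without any effect of genotype.

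**Figure D4:**
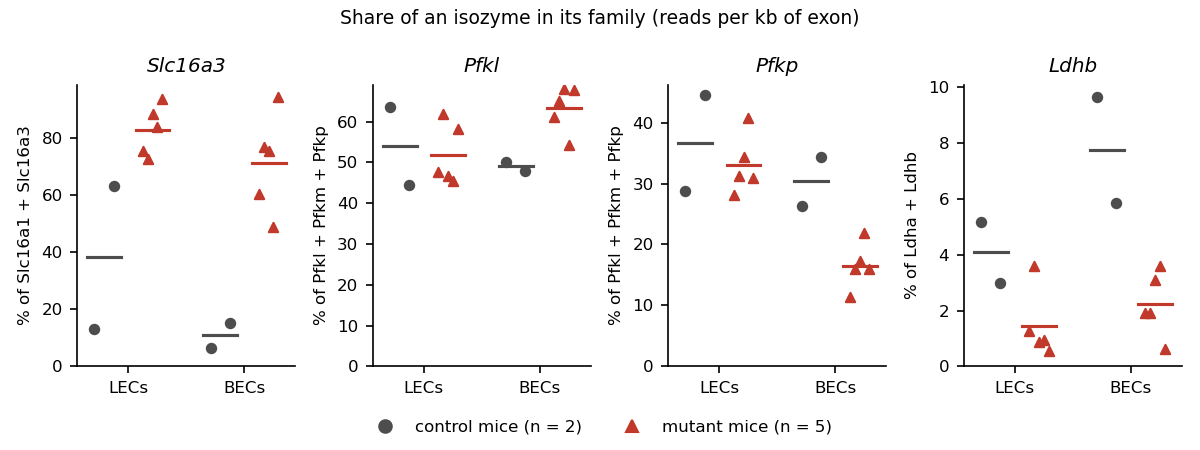
Percent of the reads per kb of exon of a gene family that belong to Slc16a3, Pfkl, Pfkp and Ldhb, in LECs and BECs, 1 point per mouse with a line at the group mean (grey, 2 controls; red, 5 mutants; axes start at 0). Mutant and control points do not overlap for Slc16a3 in either cell type or for Pfkl, Pfkp and Ldhb in BECs.

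Whether the change differed between LECs and BECs was tested as the difference of both effects with mouse as a block. By edgeR 0 of 34 members were called, where 0.182% of 22000 genes were, with 7 members at an unadjusted p under 0.05 (11.3% of all genes) and 2 called by DESeq2 (5.75%). The 2 were *Gpi1* and *Aldoa*, which moved less in LECs, by −0.53 (SE 0.12, edgeR adjusted p = 0.14) and −0.49 (SE 0.12, edgeR adjusted p = 0.17) on the log2 scale. The larger number of calls in BECs than in LECs is therefore not shown to be a difference in effect.

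Levels between the cell types differed in both genotypes. Both contrasts came from 1 fit of all mice, so the spread behind the control contrast comes partly from the mutants. In control mice 6 of 34 members were called, where 10.0% of all genes were (5.56% higher and 4.47% lower in LECs), with 12 at an unadjusted p under 0.05 (23.6% of all genes) and 10 called by DESeq2 (20.5%). *Aldoa* was higher in LECs (log2 0.57, SE 0.10, adjusted p = 0.011). *Pfkm* (−1.81, SE 0.39), *Gapdh* (−0.44, SE 0.11), *Pkm* (−0.71, SE 0.17), *Ldha* (−0.62, SE 0.11) and *Bnip3* (−1.84, SE 0.31) were lower in LECs. Without control 1 no member was called, and without control 2, 1 was, while all 6 genes above lost their calls in both fits. *Gapdh* also lost its call without mutant 1, 2, 3 or 5 and *Pkm* without mutant 3. In mutant mice 13 were called, where 19.0% of all genes were (9.88% higher and 9.12% lower in LECs).

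In mutants, *Hk2*, *Mpc1*, *Mpc2* and *Pgls* were higher in LECs, and *Slc2a1*, *Gpi1*, *Pfkl*, *Pfkm*, *Gapdh*, *Pkm*, *Ldha*, *G6pdx* and *Bnip3* were lower. *Pfkl* was at 97.2–189 CPM in LECs and 223–403 CPM in BECs of the mutants (−1.20, SE 0.15, adjusted p = 0.0011), and *Pkm* at 544–867 and 1026–1485 CPM (−0.95, SE 0.11, adjusted p = 0.00066). Both were lower in the LECs of every mutant mouse. *Bnip3* was at 12.7–39.0 CPM in LECs and 66.4–236 CPM in BECs (−2.22, SE 0.20, adjusted p = 0.00018). *Hk2* was read at 0.277–5.82 CPM in LECs and 0.024–0.284 CPM in BECs (adjusted p = 0.0092), the BEC level being close to the floor. Without any 1 mutant the count was 8–10, and *Hk2*, *Gpi1*, *Pfkl*, *Pfkm*, *Pkm*, *Ldha*, *G6pdx* and *Bnip3* kept their calls in every fit that left out a mouse. *Slc2a1* lost its call without mutant 2, 3, 4 or 5, *Gapdh* and *Pgls* without any 1 mutant, *Mpc1* without control 1 or mutant 1, 2, 3 or 4, and *Mpc2* without mutant 1, 3, 4 or 5. Without cycling cells *Mpc2* (adjusted p = 0.055) and *Pgls* (adjusted p = 0.10) lost theirs.

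*Ptx3* LECs, which express the pentraxin *Ptx3*, were compared between genotypes next. Of 34 members 33 passed the filter on low counts (*Pdk4* did not), and 3 were called, all higher, where 5.03% of 16756 genes were called and 2.82% higher. The 3 were *Pkm*, *Pgam1* and *Pgk1*, as in all LECs, which contain these cells. DESeq2 called 10, where it called 18.8% of the genes edgeR tested, and 14 had an unadjusted p under 0.05, as did 23.9% of all genes. The members' median was 0.77 on the log2 scale and that of all genes 0.06. All mutants lay above both controls for 15 of 33, which held for 16.9% of all genes. In the same sums 7 cycling genes were at 75.1–114 CPM in controls and 615–1320 CPM in mutants (3 called higher), 10 dissociation genes at 3799–4251 and 644–1846 CPM (5 lower), 6 fibroblast markers at 375–972 and 20.5–180 CPM (2 lower) and 7 LEC markers at 11027–12744 and 7212–8771 CPM (2 lower). The 6 BEC markers were at 572–1021 CPM in controls and 1697–1848 CPM in mutants, without overlap. The part of all these lists but the cycling genes was not tested.

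*Pkm* was at 336 and 332 CPM in the *Ptx3* LECs of the controls and at 569, 948, 779, 692 and 975 CPM in mutants (log2 fold change 1.25, adjusted p = 0.023, edgeR). *Pgk1* was at 63.2 and 37.3 CPM and at 125, 149, 117, 105 and 153 CPM (1.37, adjusted p = 0.038), and *Pgam1* at 106 and 194 CPM and at 278, 372, 340, 344 and 357 CPM (1.17, adjusted p = 0.037). No mutant overlapped a control for these genes. *Pdk1*, which inhibits pyruvate dehydrogenase, was at 1.06 and 6.61 CPM and 22.2–45.8 CPM without overlap (2.89, SE 0.76, adjusted p = 0.064), and *Slc16a3* at 0.266 and 4.44 CPM and 17.8–163 CPM (adjusted p = 0.073). Control 1 had only 12 *Ptx3* LECs. A fit without control 2 rests on these cells alone for the control side. Over the 7 fits that leave out a mouse, log2 fold changes were 1.15–1.34 for *Pkm*, 0.83–1.73 for *Pgam1* and 1.10–1.82 for *Pgk1*. *Pkm* lost its call without control 1 (edgeR adjusted p = 0.058), *Pgam1* without control 1 or any 1 mutant, and *Pgk1* without any 1 mutant, when only *Pkm* was called. Without cycling cells, 0% and 4.55% of these cells in controls and 13.2–27.4% in mutants, none was called, with log2 fold changes of 1.06 for *Pkm*, 1.10 for *Pgam1* and 1.17 for *Pgk1*. With the plate number series as a covariate none was called either (edgeR adjusted p = 0.095, 0.25 and 0.19).

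In collecting LECs none of 29 members tested was called between genotypes by edgeR, where 0% of 13721 genes were called. At an unadjusted p under 0.05 there were 5 (7.43% of all genes), and DESeq2 called 2, *Ldhb* and *Slc16a3* (3.75% of the genes edgeR tested). The members' median was 0.40 and that of all genes 0.09 on the log2 scale. All mutants lay above both controls for 6 members, which held for 6.30% of all genes, and below both for *Bnip3* (6.96% of all genes). *Pgam1* was at 157 and 130 CPM in controls and 197–287 CPM in mutants, *Pkm* at 355 and 271 CPM and 358–504 CPM, and *Pgk1* at 56.4 and 47.9 CPM and 63.0–97.8 CPM. *Slc16a3* was at 0 and 0.138 CPM in controls and at 0.477, 20.4, 0.393, 0.627 and 41.3 CPM in mutants, with mutants 2 and 5 far above the other 3. Sums here rest on 13–41 cells per mouse. That of mutant 5, the smallest, held 2049 CPM of the 6 fibroblast markers, against 74.5–110 CPM in controls and 2.79–29.9 CPM in the other mutants, and that of mutant 4 held 1080 CPM of 8 keratinocyte markers, against 37.3–237 CPM in all other mice. None of the fibroblast or keratinocyte markers was called by edgeR or DESeq2 or had an unadjusted p under 0.05, and their part was not tested.

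Within a mouse, *Ptx3* LECs and collecting LECs differed in *Slc2a1* and *Pkm*. Cells that met both rules (3 in control 2 and 5, 1, 5, 2 and 0 in mutants 1–5) were left out here and the sums were scaled together, so values differ from those above. In mutant mice 2 of 33 members were called, where 2.77% of 16329 genes were (1.02% higher and 1.75% lower in *Ptx3* LECs), with 13 at an unadjusted p under 0.05 (14.5% of all genes) and 7 called by DESeq2 (12.2% of the genes edgeR tested). The median of all genes was 0.26 and that of the members 0.34. *Slc2a1* was at 45.4, 64.1, 94.5, 25.4 and 126 CPM in the *Ptx3* LECs of mutants 1–5 and at 324, 328, 331, 146 and 454 CPM in their collecting LECs. It was lower in *Ptx3* LECs in 7 of 7 mice, controls included, and by −2.27 on the log2 scale in mutants (SE 0.28, adjusted p = 0.0031), in all 13 alternative settings. *Pkm* ran the other way, at 601, 936, 767, 672 and 933 CPM in *Ptx3* LECs and 505, 496, 430, 352 and 461 CPM in collecting LECs (0.79, SE 0.13, adjusted p = 0.013). Its call was lost without mutant 2, 3, 4 or 5 (0.74–0.93 over the 7 fits, edgeR adjusted p up to 0.0714), and without cycling cells (0.62, adjusted p = 0.097).

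In control mice *Slc2a1* was at 23.6 and 56.9 CPM in *Ptx3* LECs and 256 and 176 CPM in collecting LECs (−2.52, SE 0.46, adjusted p = 0.10). With the 3 cells that met both rules, control 2 was at 111 and 281 CPM. None of 33 members was called there by edgeR, where 0.135% of all genes were, with 4 at an unadjusted p under 0.05 (10.5% of all genes) and 3 called by DESeq2 (7.98% of the genes edgeR tested). The difference of this contrast between genotypes called none by edgeR, where 0% of all genes were, with 5 members at an unadjusted p under 0.05 (8.53% of all genes), *Pfkl*, *Tpi1*, *Pkm*, *G6pdx* and *Pgd*. DESeq2 was not run for that difference. It is therefore not shown that the lower *Slc2a1* or higher *Pkm* of *Ptx3* LECs against collecting LECs depends on the mutation. Per kb without TMM scaling, and with cells that met both rules, control *Slc2a1* was at 70.1 and 83.2 CPM in collecting LECs. It was at 23.4 and 25.7 in all LECs, and 6.33 and 33.03 in *Ptx3* LECs. Mutant means were 84.9, 32.97 and 22.06. Control 2 was thus higher in *Ptx3* LECs than in all its LECs. Whether *Ptx3* or collecting LECs differ from the other LECs was not tested.

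**Figure D5:**
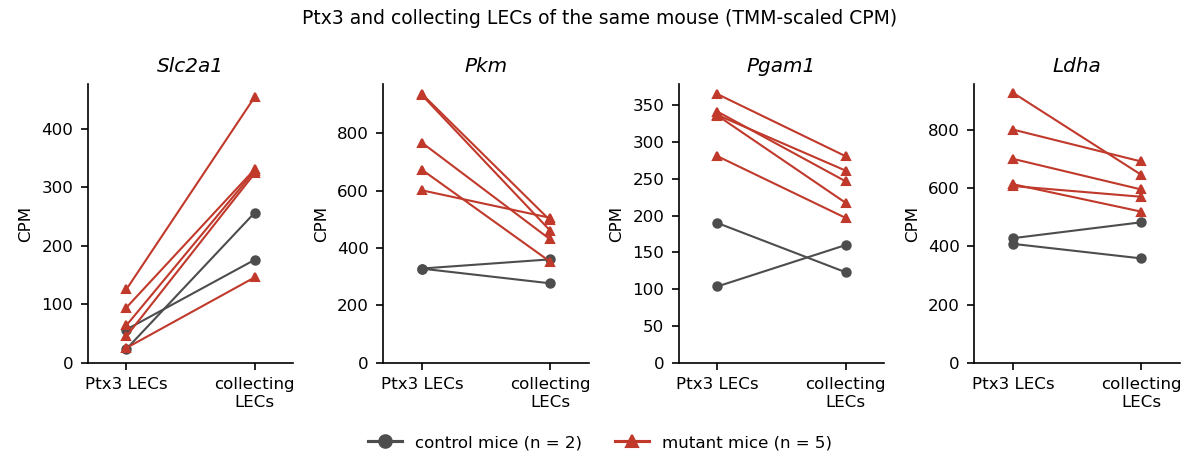
TMM-scaled CPM of Slc2a1, Pkm, Pgam1 and Ldha in Ptx3 LECs and collecting LECs, with a line joining both values of 1 mouse (grey, 2 controls; red, 5 mutants; axes start at 0). Slc2a1 rises from left to right in all 7 mice, and Pkm falls in 6 of 7.

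Other genes of these routes were taken from lists around the 34. Among all genes in LECs, edgeR called 2.76%, DESeq2 called 14.6% of those edgeR tested, and 20.1% had an unadjusted p under 0.05. The same shares in BECs were 1.87%, 13.5% and 19.2%. No list was tested against these shares. In LECs edgeR called none of 16 further glycolysis genes (3 at an unadjusted p under 0.05, DESeq2 2), 9 of the pyruvate dehydrogenase complex (2, DESeq2 0), 5 of the pentose phosphate pathway (1, DESeq2 1) and 5 of the hexosamine route (0, DESeq2 0). *Mthfd2*, a mitochondrial folate enzyme, was called higher in LECs (log2 fold change 3.13, SE 0.49, adjusted p = 0.019). It stands in a list of 8 genes linked to NADPH by other routes. Also called higher was *Hif1a*, from a list of 20 genes named hypoxia-responsive (1.19, SE 0.20, adjusted p = 0.026). *Hif1a* encodes a HIF factor, and that list holds such factors and their regulators besides other genes. *Gys1*, glycogen synthase, was called higher among 12 genes of glycogen and gluconeogenesis (2.11, SE 0.40, adjusted p = 0.036). DESeq2 called 1, 3 and 3 genes of these lists, at an unadjusted p under 0.05 there were 2, 3 and 3, and edgeR called *Mthfd2* in 12, *Hif1a* in 11 and *Gys1* in 7 of 19 settings. The median of the hypoxia-responsive list was 0.09 on the log2 scale. In BECs edgeR called *Hif1a* (1.02, SE 0.20, adjusted p = 0.049) of the 20 genes of the hypoxia-responsive list, whose median was 0.40. It also called the transporter *Slc2a6* of 17 further glycolysis genes, at 0 CPM in both controls and 0.999–7.64 CPM in mutants. DESeq2 called 3 and 2 genes of these lists, and 5 and 3 genes had an unadjusted p under 0.05. By edgeR none was called of 9 pyruvate dehydrogenase genes (1 at an unadjusted p under 0.05, DESeq2 0) or 6 pentose genes (0, DESeq2 0). Nor was any of 8 NADPH (2, DESeq2 1), 13 glycogen (3, DESeq2 2) or 5 hexosamine genes (1, DESeq2 0).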

How the data were processed

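Single LECs and BECs from ear skin of 5 mutant and 2 control mice were measured by Smart-Seq2. The authors deposited raw counts per gene, obtained per the labels and the study's methods with TopHat 2.1.1 on GRCm38, removal of duplicates with SAMtools 0.1.18, and featureCounts; column names mark duplicate removal in every table but that of control 2, where it is not stated; the annotation release and the handling of multi-mapping reads are not given in the sources used here. Duplicate removal compresses the counts of highly read genes. Cells under 200 detected genes, under 50000 reads or above 10% of reads from mitochondria were dropped, and the others were classed by markers and summed per mouse, with sums of fewer than 5 cells left out and 92 spike-in rows removed. Median reads per cell were 250729–404517 per mouse. P-values measure the spread between mice.

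Sums were TMM-scaled and tested with edgeR 4.0.16 (quasi-likelihood, R 4.3.3), Benjamini-Hochberg adjusted over all genes passing the expression filter, with DESeq2 1.42.0 as an alternative. Cell types and LEC classes within a mouse were compared with mouse as a block, both genotypes in the same fit. On data simulated for mutant against control LECs (19758 genes, 100 genes changed per fold size), edgeR found 15–21 genes changed by a log2 fold of 1 and 74–87 changed by 2, with 2–6 false calls, and DESeq2 47–58 and 94–99, with 118–148 false calls. The changed genes were drawn only from genes above a set mean CPM, so these numbers do not cover members near the floor. Cells were thinned to 50000 reads for shares. Alternatives were the normalization, the filter, leaving out each mouse, thinning, cycling cells, plate series, equal cell numbers, first plates, stricter classes, sex and a replicate block. Pseudogene copies of members held at most 0.218% of a member's reads. The 34 genes and all lists were chosen with earlier results of these data known. All 34 members enter every comparison, and of the other lists only the genes called between mutant and control in LECs or BECs are named.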

Additional observations from a re-analysis of the deposited data

Results flagged for a closer look

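Among 130 groups of 5 mutant mice, a mouse stood apart from the other 4 in 12, by a gap to its nearest neighbour of more than 0.71 of the whole range. Chance flags about 1 in 20 groups, so several of these are expected without any difference between mice. In 8 of the 12 the mouse was mutant 5.

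In LECs, mutant 5 was the highest for Tpi1 (543 CPM, the others 322.9–372.1), Pgk1 (141.1 CPM, the others 97.85–109.9), Slc16a3 (153.5 CPM, the others 20.31–47.84) and Mpc1 (99.18 CPM, the others 78.48–83.39). In BECs it was the highest for Tpi1 (497.3 CPM, the others 285.5–335.8), Slc16a3 (99.64 CPM, the others 24.27–44.75) and Mpc1 (92.59 CPM, the others 48.87–59.84), and in collecting LECs for Pfkp (243.2 CPM, the others 86.76–117.2). Mutant 5 is the mutant whose plates carry the controls' number series. Its LECs were also read deepest, at a median of 488024 reads and 7439 genes per cell. The LECs of the other mutants were at 274769–335018 reads and 4699–6556.5 genes. In BECs its median of 315529 reads lay within the 189081–317269 of the other mutants. The part of series or depth was not tested.

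Mutant 2 was the highest for Ldhb in LECs (12.73 CPM, the others 2.515–3.751), Pdk4 in LECs (1.767 CPM, the others 0.01716–0.1063), Rpia in Ptx3 LECs (5.92 CPM, the others 0.7291–1.32) and Pfkfb3 in collecting LECs (43.72 CPM, the others 19.88–22.1).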

How the results depend on the processing

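None of the 104 log2 differences of single members that had an unadjusted p under 0.05 reversed in any alternative (1333 comparisons with the main value kept direction and side of the threshold, 164 lost a call and 80 gained one). Of the other 194 differences of members, 107 changed sign in at least 1 alternative and 5 were called in one. The number of members called in LECs (3) was 12 with DESeq2, 1 without cycling cells, 0 within the controls' plate series and, chosen after seeing the data, 5 with plate series as a covariate. In BECs (8) it was 14, 8, 0 and 1. In Ptx3 LECs (3) it was 10, 0, 1 and 0, with 5 without an expression filter and 5 without cells that also met the collecting rule. DESeq2 called 2 members in collecting LECs (edgeR 0), 10 between LECs and BECs of control mice (edgeR 6), 2 in the difference of effects (edgeR 0), and 3 and 7 between Ptx3 and collecting LECs of control and mutant mice (edgeR 0 and 2). In those last comparisons 1 was called in control mice with thinned cells and 1 in mutant mice without cycling cells. The cause was not tested.

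Leaving out each mouse in turn gave 1–4 calls in LECs, 0–8 in BECs, 1–12 in Ptx3 LECs, 0 in collecting LECs, 0–7 and 8–14 between LECs and BECs of control and mutant mice, 0 for the difference of effects, and 0–1 and 1–2 between Ptx3 and collecting LECs. The highest count in Ptx3 LECs came from the fit without control 2, whose only control sum holds 12 cells. Shares of all genes called are not given for these fits. Differences in the share of LECs with a read, in percentage points, ranged over the fits that leave out a mouse from 6.454 to 17.43 for Slc2a1, 2.095 to 3.745 for Hk2, −22.59 to 3.22 for Pfkfb3 and −0.1369 to 0.4345 for Pdk4. Pfkfb3 turned to 3.22 and Pdk4 to −0.1369 without control 1, and Pdk4 to −0.1112 with cells as deposited.

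With a replicate block the count was 0 in LECs, BECs, Ptx3 LECs and collecting LECs, on 2 shared numbers. Same-numbered mice did not deviate together (correlations −0.0468 to 0.0777), so the numbers do not pair the mice. Depth limited Hk2, Slc2a3, Pfkfb4, Aldoc and Pdk4, which were too low to be tested in collecting LECs.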
